A study of Mus musculus with 12 samples.

Results

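The intermediate filament genes of glia and neurons were examined in primary mouse hippocampal cultures after knockdown (KD) of the long noncoding RNA *Neuid*. The 9 genes were chosen by symbol: the glial filament genes *Gfap*, *Vim*, *Nes* and *Synm*, the neuronal filament genes *Nefl*, *Nefm*, *Nefh* and *Ina*, and *Plec*, which encodes a linker of filaments. All 9 were among the 55471 genes of the count table and among the 19578 genes expressed enough to be tested. The cultures were made from hippocampi of late CD1 mouse embryos of both sexes and were of wild-type genotype per the labels. Every culture received a gapmer, a single-stranded antisense oligonucleotide with locked nucleic acids that leads RNase H to cut its target RNA, packaged in lipid nanoparticles and added at day in vitro (DIV) 7. The control libraries received a negative control gapmer with no known target and the *Neuid* KD libraries 1 gapmer against *Neuid*, and RNA was collected at DIV 10 from 6 libraries per group. The comparison asked how loss of *Neuid* altered gene expression in these cultures. The labels do not say whether the 6 libraries of a group came from separate cultures, so the p-values measure the spread between libraries, which may be technical.

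Intermediate filament proteins share a central coiled-coil rod and assemble into rope-like filaments that give cells mechanical strength. Their composition marks the cell type and its stage: vimentin and nestin are typical of neural progenitors and immature glia, GFAP of astrocytes, and the light, medium and heavy neurofilament proteins together with alpha-internexin of neurons, where they set the calibre of axons. NF-H is the neurofilament protein that appears last as neurons mature, and GFAP and vimentin are both known to increase in reactive astrocytes.

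Between 18002585 and 30914714 reads were counted on genes in each control library and between 11152556 and 30573480 in each *Neuid* KD library. *Neuid* itself, annotated as Gm10419 (ENSMUSG00000072769; chromosome 5 of GRCm38, 108367769 to 108378239, plus strand), had a level of 28.4 ± 2.03 CPM in control libraries (counts scaled to a common library size after TMM adjustment). After *Neuid* KD it had 8.05 ± 1.13 CPM. Errors of means are SDs throughout, over 6 libraries in each group. The libraries differed in background reads, measured on chemosensory receptor genes, with a range of 26.0 to 653 CPM among the control libraries and 26.9 to 604 CPM after *Neuid* KD. With the background as a covariate, or within the 7 libraries at or above 100 CPM or the 5 under it, no member changed direction.

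Of the 9 members, 4 rose and 2 fell in *Neuid* KD with a Benjamini-Hochberg adjusted p under 0.05 from the quasi-likelihood test of edgeR, fitted across all genes. Among all tested genes 8.72% passed, with 6.31% higher and 2.42% lower in *Neuid* KD, and 14.6% passed in the quartile with the highest expression, to which all 9 members belong. *Gfap* and *Nes* rose, *Vim* fell, and these 3 exceeded an absolute log2 fold change of 0.5, as did 3.23% of the tested genes (2.44% higher and 0.792% lower). *Nefm* and *Nefh* rose and *Plec* fell by smaller amounts. *Synm*, *Nefl* and *Ina* did not pass. The CPM values of 6 members did not overlap between the groups, which was the case for 5.7% of all tested genes.

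**Figure D1:**
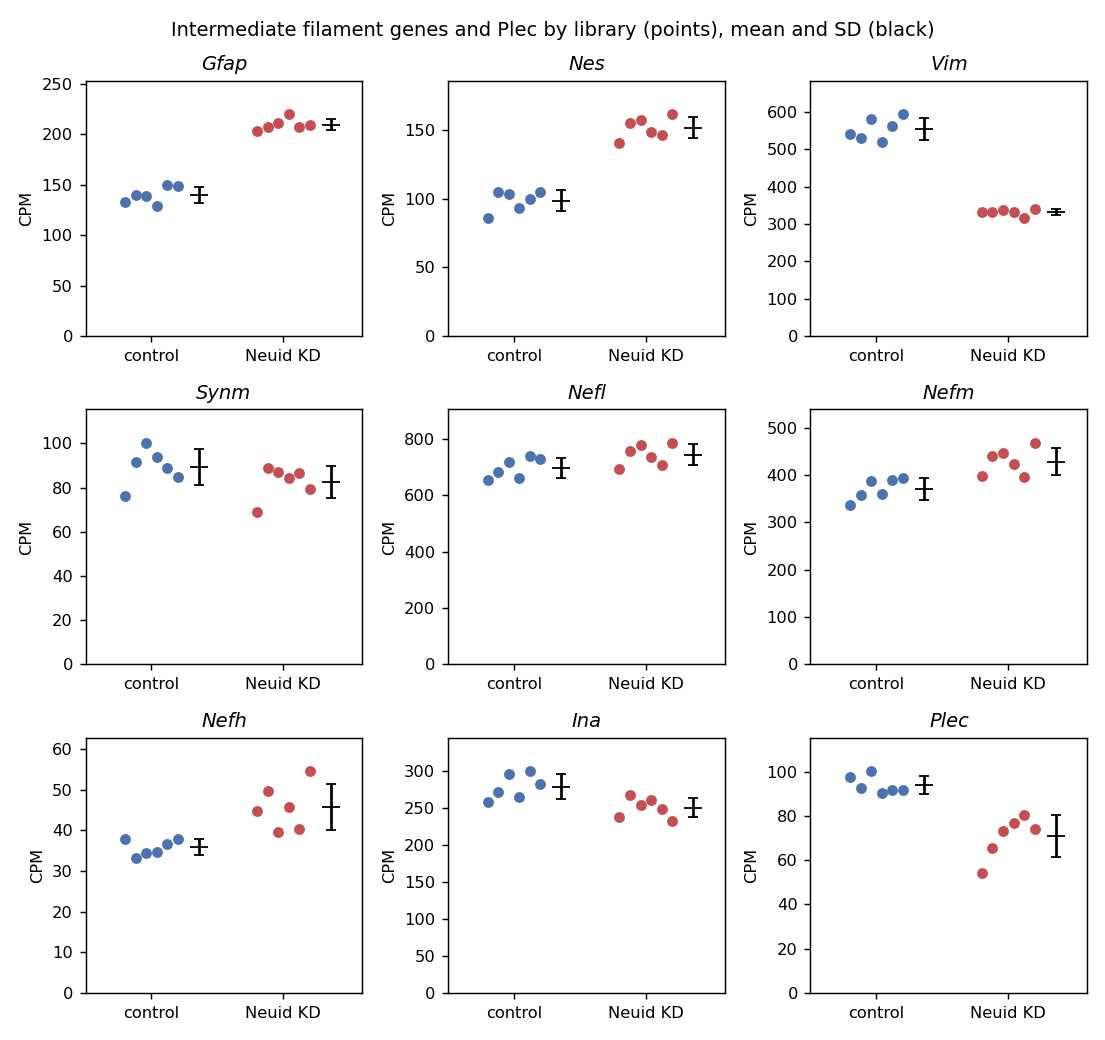
CPM of each member in the 6 control and the 6 *Neuid* KD libraries (coloured points, in order of the replicate number), with the mean and SD in black and each axis starting at 0. *Gfap* and *Nes* are higher and *Vim* and *Plec* lower in every *Neuid* KD library than in every control library, and the points of *Synm*, *Nefl* and *Ina* overlap.

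*Gfap* encodes glial fibrillary acidic protein, the main filament protein of astrocytes (ENSMUSG00000020932; chromosome 11, 102887336 to 102900912, minus strand). Its control libraries lay between 129 and 149.7 CPM (median 139) and its *Neuid* KD libraries between 204 and 220.0 CPM (median 209). All *Neuid* KD libraries were above all control libraries, with a coefficient of variation of 5.88% in control and 2.66% in *Neuid* KD. The log2 fold change was 0.59 (standard error 0.0474, edgeR adjusted p = 1.31e-07), a 1.501-fold increase. *Nes* encodes nestin, the filament protein by which neural progenitors are commonly recognized (ENSMUSG00000004891; chromosome 3, 87971078 to 87980451, plus strand). It ranged from 85.6 to 105 CPM in control (median 102) and from 141 to 161 CPM in *Neuid* KD (median 152), again without overlap. Its log2 fold change was 0.62 (standard error 0.057, edgeR adjusted p = 6.85e-07), so that *Nes* rose 1.54-fold.

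The sequences upstream of *Gfap* and *Nes* are shown because these were the filament genes that rose by more than 0.5. They are the 250 bases before the RefSeq start on GRCm38.p6, 5′ to 3′ on the strand of the gene, at chr11:102897201-102897450 (minus strand) and chr3:87970843-87971092 (plus strand). Capitals mark matches, on either strand, to 1 of 7 short motifs that were chosen after the expression values were known.
Gfap promoter: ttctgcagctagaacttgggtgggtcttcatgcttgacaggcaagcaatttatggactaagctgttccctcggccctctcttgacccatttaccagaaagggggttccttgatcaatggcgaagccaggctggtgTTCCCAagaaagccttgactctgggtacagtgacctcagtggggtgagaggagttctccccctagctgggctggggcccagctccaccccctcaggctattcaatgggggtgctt
Nes promoter: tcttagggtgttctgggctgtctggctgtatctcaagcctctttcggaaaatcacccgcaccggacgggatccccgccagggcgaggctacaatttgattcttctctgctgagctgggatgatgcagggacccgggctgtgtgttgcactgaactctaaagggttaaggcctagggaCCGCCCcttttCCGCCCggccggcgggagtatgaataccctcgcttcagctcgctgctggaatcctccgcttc
The *Gfap* window held 1 match to TGGGAA, a core of RBPJ sites, from -115 to -110 relative to the start and on the opposite strand, and 21.6% of 32851 RefSeq promoter windows of this length held that motif. The *Nes* window held 2 matches to GGGCGG, a core of Sp1 sites, from -73 to -68 and from -62 to -57, and 32.7% of all windows held it. Neither window held the STAT motif TTCNNNGAA, which was in 7.02% of all windows, or the AP-1 motif TGAGTCA, in 4.46%. The Sox motif AACAAT, in 9.42% of all windows, the TATA box TATAAA, in 12.4%, and the NFI core TTGGC, in 41.5%, were also without a match in both. *Gfap* and *Nes* shared no match among the 7 motifs. RefSeq windows were found for 5 of the 9 members, and those of *Vim*, *Synm* and *Ina* are not printed.

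*Vim* encodes vimentin, found in immature glia, astrocytes, fibroblasts and endothelial cells (ENSMUSG00000026728; chromosome 2, 13573927 to 13582826, plus strand). It went the opposite way to *Gfap* and *Nes*. In control libraries it lay between 520 and 594 CPM (median 551), and in *Neuid* KD libraries between 316 and 341 CPM (median 332). The groups were far apart, with the *Neuid* KD mean at 59.8% of the control mean. Of the 9 members *Vim* had the log2 fold change of greatest size, at -0.74 (standard error 0.045, edgeR adjusted p = 3.09e-09). *Synm* encodes synemin, which joins vimentin and GFAP filaments (ENSMUSG00000030554; chromosome 7, 67730160 to 67759742, minus strand). It ranged from 76.1 to 100.3 CPM in control (median 90.2) and from 68.9 to 88.7 CPM in *Neuid* KD (median 85.6). The groups overlapped, and the log2 fold change of -0.11 did not pass (standard error 0.0703, edgeR adjusted p = 0.478). The exons of *Synm* share 426 bases with Gm45102 and 84 bases with Ttc23 on the opposite strand.

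Glial and progenitor markers moved in the same libraries. Of the 11 tested markers of homeostatic astrocytes, 10 rose (median log2 fold change 1.25, against -0.03 over all tested genes), and the sum of the 12 listed genes was between 1709 and 2174 CPM in control and between 3203 and 3902 CPM in *Neuid* KD. The gap junction gene *Gja1* (log2 fold change 2.27) and the water channel gene *Aqp4* (2.10) had the largest increases. *Gfap* (0.59) rose by less than these 2. Its change was close to that of *Slc1a2* (0.63), at 1185 CPM in control the highest gene of the list, and of *Atp1b2* (0.65). *Aldoc* (0.47) rose by less than *Gfap*. The CPM of *Gfap* was equal to 6.39% to 7.77% of the sum of the list in control and 5.40% to 6.35% in *Neuid* KD. For *Vim* the same value was 26.0% to 31.7% in control and 8.64% to 10.4% in *Neuid* KD. Markers of neural progenitors summed to between 402 and 474 CPM in control and between 853 and 1029 CPM in *Neuid* KD, and 4 of 8 rose. They were *Fabp7* (1.498), *Sox2* (0.89), *Prom1* (0.89) and *Pax6* (0.34). The call of *Pax6* was lost in 12 of 23 alternatives: without control replicate 3, 5 or 6 or *Neuid* KD replicate 1, 4, 5 or 6 (edgeR adjusted p between 0.0531 and 0.146), with upper-quartile normalization (0.14), within the libraries at or above 100 CPM of background (0.0796) or under it (0.0602), with offsets for GC content and length (0.112) and at equal depth (0.131). *Nes* corresponded to 21.04% to 23.01% of the sum of the 8 progenitor markers in control and 13.7% to 17.2% in *Neuid* KD. *Olig1* and *Olig2* were the 2 of 6 markers of oligodendrocyte precursors that rose. This list summed to between 96.3 and 115 CPM in control and between 247 and 292 CPM in *Neuid* KD. Most of that sum was *Olig1*, with means of 78.2 and 216 CPM. *Pdgfra* (0.44), *Cspg4* (0.16), *Sox10* (0.09) and *Gpr17* (-0.77) did not pass (edgeR adjusted p between 0.223 and 0.954). The part of these markers in the changes of *Gfap*, *Nes* and *Vim* was not tested, and in such bulk cultures more cells of a type and more RNA per cell cannot be told apart.

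Markers of non-neural cells had few reads. Markers of fibroblasts and mural cells summed to between 40.2 and 72.02 CPM in control and between 37.7 and 60.9 CPM in *Neuid* KD, and none of the 9 passed in edgeR, at an unadjusted p under 0.05 (0 genes) or in DESeq2 (0 genes). Their median log2 fold change was -0.46, against -0.03 over all tested genes, and 2 of the 9 were above 0. Those of endothelial cells summed to at most 24.6 CPM among control libraries and at most 23.6 CPM after *Neuid* KD (5 of 7 tested, 0 passed in edgeR, at an unadjusted p under 0.05 or in DESeq2), and those of microglia to at most 11.8 and 11.5 CPM (3 of 8 tested, 0 passed in any of the same ways). The median log2 fold changes of the endothelial and microglial markers were -0.30 and -0.31, and no tested gene of either list was above 0. The sum of each of these marker lists was below the CPM of *Vim* in every library. What part such cells had in the level or the fall of *Vim* was not tested. Of the 7 tested markers of reactive astrocytes, *Osmr*, the oncostatin M receptor gene, rose (1.22), while *S1pr3*, a sphingosine 1-phosphate receptor gene, and *Cp*, the ceruloplasmin gene, fell (-1.83 and -0.76). This list summed to between 88.0 and 99.0 CPM in control and between 71.3 and 85.5 CPM in *Neuid* KD. Markers of myelinating oligodendrocytes summed to between 26.3 and 32.8 CPM in control and between 22.7 and 33.2 CPM in *Neuid* KD, and *Mbp* (-0.66), a gene of compact myelin, was the 1 of 4 that fell, a call lost within the libraries at or above 100 CPM of background (-0.54, edgeR adjusted p = 0.0551).

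Among transcription factors known to act on astrocyte genes, 4 of the 9 tested rose and none fell in edgeR (0 also at an unadjusted p under 0.05 and in DESeq2). *Hes5* rose by a log2 fold change of 1.69 and *Hes1* by 0.52, and both are effectors of Notch signalling. *Sox9* rose by 0.47 and *Nfia* by 0.43, and both belong to the factors that start gliogenesis. *Hes1* did not pass within the libraries at or above 100 CPM of background (edgeR adjusted p = 0.0609), within those under it (0.131), or without *Neuid* KD replicate 4 (0.0521) or 6 (0.0524).

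**Figure D2:**
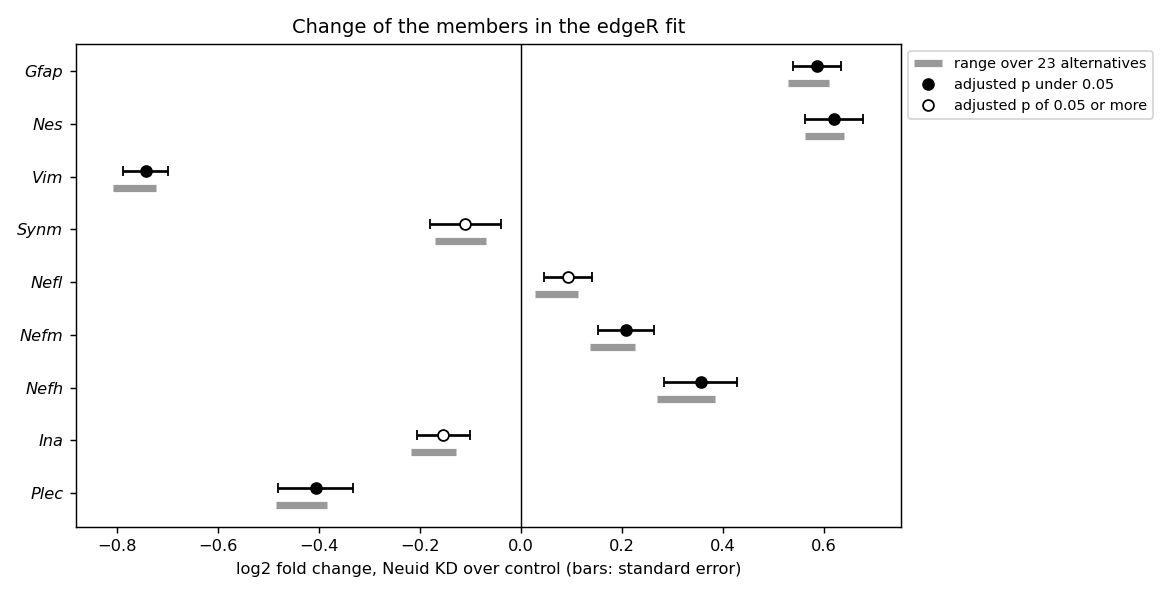
Log2 fold change of each member between *Neuid* KD and control in the edgeR fit (circles, with the standard error as bars, filled where the adjusted p was under 0.05), with the range over 23 other ways of processing the counts as grey bars. *Gfap* and *Nes* lie between 0.53 and 0.64 and *Vim* between -0.81 and -0.72 in all of them, and no grey bar crosses 0.

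Of the 4 neuronal filament genes, 2 rose and none exceeded an absolute log2 fold change of 0.5. *Nefl* encodes the light neurofilament protein, on which the other neurofilament proteins depend for assembly (ENSMUSG00000022055; chromosome 14, 68083863 to 68089095, plus strand). It ranged from 655 to 738 CPM in control (median 699.8) and from 694 to 786 CPM in *Neuid* KD (median 747). The groups overlapped, and the log2 fold change was 0.09 (standard error 0.0482, edgeR adjusted p = 0.331). *Nefm*, for the medium protein, lies on the same part of chromosome 14 (ENSMUSG00000022054; 68082590 to 68124846, minus strand). Its control libraries reached from 337 to 394 CPM (median 374) and its *Neuid* KD libraries from 395 to 468 CPM (median 431), so that the groups were just apart. *Nefm* rose by 0.21 on the log2 scale (standard error 0.0554, edgeR adjusted p = 0.0242). This call was lost without control replicate 1 (edgeR adjusted p = 0.0506), 2 (0.159), 4 (0.0593) or 6 (0.0716), and without *Neuid* KD replicate 2 (0.162), 3 (0.124), 4 (0.0914) or 6 (0.125), while its log2 fold change stayed between 0.15 and 0.22. The annotated exons of *Nefl* and *Nefm* share 1108 bases on opposite strands, and the strand setting of the counting is not given in the sources used here, so reads in that stretch cannot be assigned with certainty.

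*Nefh* encodes the heavy neurofilament protein, whose long tail carries many phosphorylation sites (ENSMUSG00000020396; chromosome 11, 4938754 to 4948064, minus strand). It was the least abundant of the neurofilament genes, between 33.3 and 37.9 CPM in control (median 35.7) and between 39.7 and 54.5 CPM in *Neuid* KD (median 45.3). The groups did not overlap, but the coefficient of variation was 12.3% in *Neuid* KD against 5.46% in control. *Nefh* rose by 0.36 on the log2 scale (standard error 0.0719, edgeR adjusted p = 0.00327), the largest change among the neuronal filament genes. *Ina* encodes alpha-internexin, the filament protein that neurons make early (ENSMUSG00000034336; chromosome 19, 47014698 to 47025327, plus strand). It ranged from 258 to 300.1 CPM in control (median 277) and from 233 to 268 CPM in *Neuid* KD (median 252), with overlap between the groups. Its log2 fold change was -0.15 (standard error 0.0518, edgeR adjusted p = 0.0844), and in 8 of 23 alternatives this difference passed, among them DESeq2 (adjusted p = 0.00753), the background as a covariate (edgeR adjusted p = 0.00255), and the fits without control replicate 1 (0.0486) or *Neuid* KD replicate 1 (0.0224). Of the exon bases of *Ina*, 456 are shared with Nt5c2 on the opposite strand.

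The RNA of neuronal markers and of the rest of the axonal and dendritic cytoskeleton was compared as well. The 12 neuronal markers summed to between 3150 and 3666 CPM in control and between 3145 and 3657 CPM in *Neuid* KD, and 1 of them, the RNA-binding protein gene *Elavl4*, fell (-0.21). Its call was lost without control replicate 2 (edgeR adjusted p = 0.0729), 3 (0.0787), 5 (0.0835) or 6 (0.0572) or *Neuid* KD replicate 2 (0.0628), without a filter on low counts (0.446) and within the libraries at or above 100 CPM of background (0.272). At an unadjusted p under 0.05 in edgeR, 2 of the 12 markers rose and 2 fell, and in DESeq2 0 rose and 2 fell. The 2 that rose were *Elavl3* (0.17) and *Rbfox3* (0.16), each with an edgeR adjusted p of 0.164. Of 19 other genes of the axonal and dendritic cytoskeleton and of growth cones, among them genes for tubulins, microtubule-associated proteins, spectrins and kinesin heavy chains, *Kif5b* rose (0.20) and none fell (median -0.0023). A count of 0 that fell was also found with DESeq2, and at an unadjusted p under 0.05 there was 1. *Kif5b*, a motor of axonal transport, was lost in 9 of 23 alternatives, 7 of which left out 1 library (control replicate 2, 4 or 6, or *Neuid* KD replicate 2, 3, 4 or 6, with edgeR adjusted p between 0.0645 and 0.173), and the others were no filter on low counts (0.588) and the libraries at or above 100 CPM of background (0.505). The summed levels of the neuronal markers overlapped between the groups. Whether neuronal content had a part in the changes of *Nefm* and *Nefh* was not tested.

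*Plec* encodes plectin, a giant cytolinker that ties intermediate filaments to actin, microtubules and membrane junctions (ENSMUSG00000022565; chromosome 15, 76170974 to 76232574, minus strand). It lay between 90.5 and 100.2 CPM in control (median 92.1) and between 54.1 and 80.5 CPM in *Neuid* KD (median 73.5). The groups did not overlap. *Neuid* KD replicate 1, the library with the fewest reads, was the lowest, and the next was at 65.6 CPM. *Plec* fell by 0.41 on the log2 scale (standard error 0.0749, edgeR adjusted p = 0.00146), and without *Neuid* KD replicate 1 its log2 fold change was -0.39 (edgeR adjusted p = 7.8e-05). *Plec* shares 205 exon bases with Parp10 on the same strand, of 18113 exon bases in all. None of the 6 other plakin genes, which encode linkers of the same family, passed in edgeR, at an unadjusted p under 0.05 (0 genes) or in DESeq2 (0 genes), with log2 fold changes between -0.64 and 0.17.

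**Figure D3:**
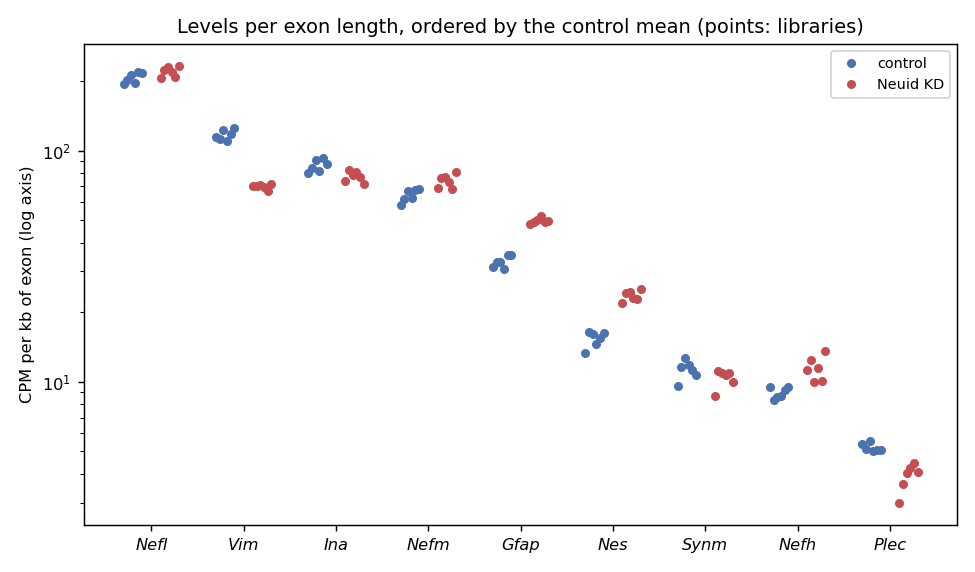
CPM per kb of annotated exon (log axis) of each member in the 6 control and 6 *Neuid* KD libraries, ordered by the control mean. In control libraries *Vim* stands apart between *Nefl* and *Ina*, and in *Neuid* KD libraries its points, from 66.6 to 71.9, reach into those of *Nefm*.

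To compare levels between genes, CPM was divided by the summed length of each gene's exons. This length joins the exons of all annotated transcripts of a gene, so it can exceed the length of the transcripts present. The order of the genes depends on it, while the change of 1 gene between the groups does not. In control libraries the order was *Nefl* (206 ± 10.6 CPM per kb), *Vim* (117 ± 6.13), *Ina* (86.1 ± 5.16), *Nefm* (64.1 ± 3.98), *Gfap* (33.1 ± 1.95), *Nes* (15.4 ± 1.20), *Synm* (11.2 ± 1.04), *Nefh* (8.97 ± 0.490) and *Plec* (5.19 ± 0.216), and no neighbours in this order overlapped. In *Neuid* KD libraries *Vim* moved from the second to the fourth place, at 69.9 ± 1.82 CPM per kb. It followed *Ina* (77.4 ± 4.11) and *Nefm* (74.1 ± 4.97), and the values of *Ina* and *Nefm*, and those of *Nefm* and *Vim*, overlapped. *Nefh* (11.5 ± 1.41) and *Synm* (10.4 ± 0.932) changed places, with overlapping values. Levels of the other members were 220.0 ± 11.2 CPM per kb for *Nefl*, 49.7 ± 1.32 for *Gfap*, 23.6 ± 1.20 for *Nes* and 3.90 ± 0.524 for *Plec*.

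The make-up of the filament transcripts shifted accordingly. Of the summed CPM per kb of the 8 filament genes, *Vim* held 21.6% ± 0.578 in control and 13.0% ± 0.369 in *Neuid* KD libraries, *Gfap* held 6.11% ± 0.176 and 9.28% ± 0.340, and *Nes* held 2.83% ± 0.158 and 4.397% ± 0.0862. The 4 glial genes together held 32.6% ± 0.470 in control and 28.7% ± 0.505 in *Neuid* KD. Within the glial genes alone, the share of *Vim* was 64.7% to 67.7% in control and 44.5% to 47.0% in *Neuid* KD, and that of *Gfap* 17.9% to 19.6% and 31.7% to 33.5%. Within the neuronal genes, *Ina* held 22.9% to 24.1% in control and 18.0% to 21.1% in *Neuid* KD, *Nefm* 17.1% to 17.9% and 18.8% to 20.3%, and *Nefl* 56.0% to 56.8% and 56.7% to 58.3%. The shares of *Vim*, *Gfap*, *Nefm* and *Ina* did not overlap between the groups, and those of *Nefl* within the neuronal genes did. Of the 8 filament genes, *Nefl* held 37.7% to 38.4% in control and 40.5% to 41.8% in *Neuid* KD, without overlap. Shares of a fixed sum depend on each other and on the exon lengths used, and were not tested.

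Whether members changed unequally was tested on the ratio of read counts of 2 genes within each library, which does not depend on the normalization. The 6 pairs were compared with a two-sided exact permutation test over all arrangements of 6 libraries against 6, adjusted over the 6 pairs. The log2 ratio of *Gfap* to *Vim* was between -2.07 and -1.91 in control and between -0.71 and -0.59 in *Neuid* KD libraries, a difference of 1.33 (standard error 0.0321) that multiplied the ratio 2.51-fold. *Nes* to *Vim* differed by 1.36 (standard error 0.0476), from between -2.66 and -2.34 to between -1.24 and -1.08. *Synm* to *Vim* differed by 0.63 (standard error 0.0867), from between -2.83 and -2.47 to between -2.27 and -1.87. *Vim* therefore fell relative to each of the other glial filament genes. None of these 3 ratios overlapped between the groups, and each had an exact permutation p of 0.00216, the smallest that the arrangements allow (adjusted p = 0.0026). For *Gfap* and *Nes* over *Vim* this outcome was fixed by the CPM values above, which moved in opposite directions without overlap. Their p-values add nothing to those values.

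**Figure D4:**
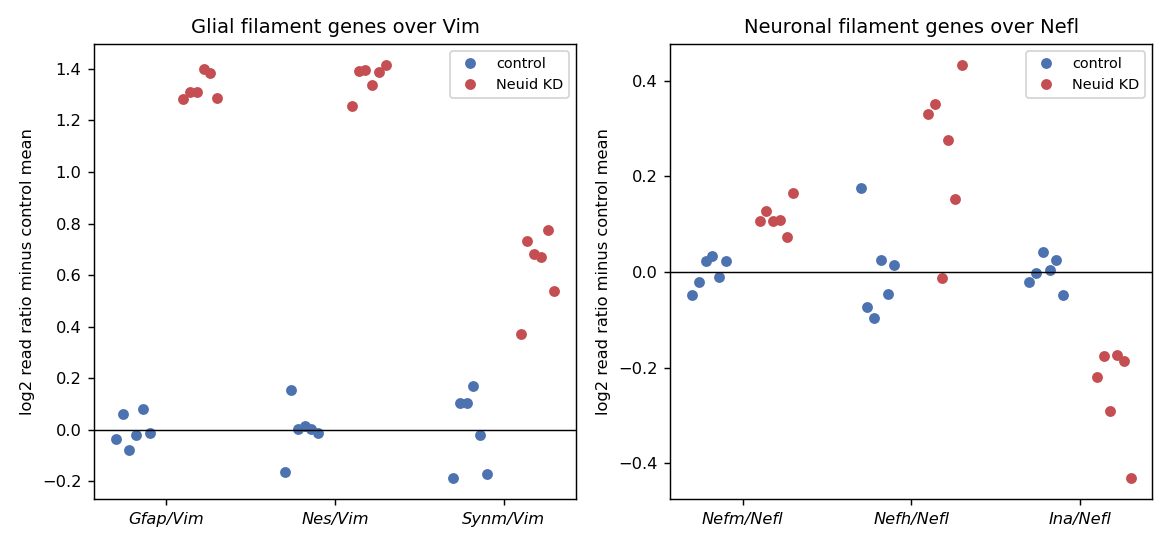
Log2 ratio of the read counts of 2 genes within each library, minus the mean of the control libraries for that pair, for glial filament genes over *Vim* (left) and neuronal filament genes over *Nefl* (right, on a smaller scale). Points are libraries. The *Neuid* KD libraries are above all control libraries for *Gfap*/*Vim*, *Nes*/*Vim*, *Synm*/*Vim* and *Nefm*/*Nefl* and below them for *Ina*/*Nefl*, and overlap with them for *Nefh*/*Nefl*.

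Among the neuronal filament genes the ratios to *Nefl* moved less. *Nefm* to *Nefl* rose by 0.11 on the log2 scale (standard error 0.0177), from between -0.96 and -0.88 in control to between -0.84 and -0.75 in *Neuid* KD. *Ina* to *Nefl* fell by 0.25 (standard error 0.0431), from between -1.37 and -1.28 to between -1.75 and -1.49. Both were without overlap (two-sided exact permutation p = 0.00216 for each, adjusted p = 0.0026). *Nefh* to *Nefl* rose by 0.25 (standard error 0.077, two-sided exact permutation p = 0.0152, adjusted p = 0.0152) with overlap, since *Neuid* KD replicates 3, at -4.30, and 5, at -4.13, lay among the control libraries, which reached from -4.38 to -4.11. *Nefm* and *Nefh* were thus higher and *Ina* lower relative to *Nefl* in *Neuid* KD. The ratio of *Nefm* to *Nefl* is subject to the bases that both genes share.

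Other genes of the filament system were looked up by list, while 8.72% of all tested genes passed in edgeR (6.31% higher and 2.42% lower). In lists of this size such a share is only a few genes, so the counts are descriptions. Of 60 other intermediate filament genes, with keratins and lamins among them, 28 were expressed enough to be tested. *Prph*, which encodes peripherin, a filament protein of peripheral and some central neurons, fell from 11.5 ± 0.652 to 8.48 ± 0.759 CPM (log2 fold change -0.45, edgeR adjusted p = 4.27e-04) without overlap. No gene of this list rose in edgeR, at an unadjusted p under 0.05 (0 genes) or in DESeq2 (0 genes), and its median log2 fold change was -0.24. Many of the 28 averaged around 1 CPM or less, such as *Krt76* (0.531 CPM, log2 fold change -1.01, standard error 0.873). Besides *Prph*, those that averaged 5 CPM or more were *Lmna* (0.03), *Lmnb1* (0.03), *Lmnb2* (0.07), *Iffo1* (0.08), *Iffo2* (-0.20) and *Krt222* (-0.20). Of 8 tested genes for small heat shock proteins, ubiquitin ligases and calpains that protect or degrade filaments, *Capn1*, encoding a calpain, fell (-0.54, edgeR adjusted p = 0.0447) and none rose (0 also at an unadjusted p under 0.05 and in DESeq2). The call of *Capn1* was lost in 14 of 23 alternatives, 9 of which left out 1 library (any control replicate, or *Neuid* KD replicate 2, 3 or 6, with edgeR adjusted p between 0.0562 and 0.104), and the others, with adjusted p between 0.0587 and 0.184, were no filter, either set of libraries by background, offsets for GC content and length, and equal depth. Among 11 genes for kinases of filament proteins and activators of CDK5, *Rock1* rose (0.26, edgeR adjusted p = 0.0287) and *Mapk3* fell (-0.18, edgeR adjusted p = 0.0436). Leaving out 1 library ended the call of *Rock1* for control replicates 1, 2, 4 and 6 and *Neuid* KD replicates 2, 3, 4 and 5 (edgeR adjusted p between 0.0631 and 0.172), and that of *Mapk3* for control replicates 2, 3, 5 and 6 and *Neuid* KD replicates 2, 3 and 4 (0.0964 to 0.163). Without a filter on low counts and within the libraries at or above 100 CPM of background, the calls of *Rock1* (0.283 and 0.376) and *Mapk3* (0.59 and 0.563) were lost as well, and that of *Mapk3* also with offsets for GC content and length (edgeR adjusted p = 0.416).

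For each member, the genes with the most similar log2 CPM over the 12 libraries were looked up among 10705 other genes that averaged 5 CPM or more. The libraries share group, depth and background, so these correlations are descriptions. *Gfap* was closest to *Cyp7b1*, which encodes an oxysterol hydroxylase (Pearson r = 0.995), *Glud1*, for glutamate dehydrogenase (0.991), and *Fads2*, for a fatty acid desaturase (0.99). *Nes* was closest to *Ptprz1*, a receptor phosphatase gene of glia and progenitors (0.988), *Tril* (0.988) and *Tnfrsf19* (0.987). *Vim* was closest to *Nudt4* (0.987), *Neuid* itself (0.985), whose fall is that of the gapmer's target, and *Gpd1*, for glycerol-3-phosphate dehydrogenase (0.981). By rank (Spearman) the values of these 3 with *Vim* were 0.923, 0.839 and 0.734. The nearest genes of *Nefl* were *Amph* (0.961), *Dbn1* (0.961) and *Gtf2i* (0.955), of which *Amph* and *Dbn1* encode the synaptic proteins amphiphysin and drebrin. For *Nefm* they were *Trappc9* (0.973), *Sall2* (0.962) and *Limch1* (0.961), and for *Nefh* *Tmcc3* (0.942), *Akt2* (0.931) and Gm12892 (0.924). *Ina* was nearest to *Jun* (0.954), *Tmeff2* (0.95) and *Elavl4* (0.949), *Synm* to *Ttc14* (0.957), *Rlf* (0.943) and *Kdm4b* (0.93), and *Plec* to *Arhgap20* (0.941), *Dusp18* (0.935) and *Atp11b* (0.934). No gene stood near more than 1 member in these lists.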

How the data were processed

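Total RNA of primary hippocampal cultures was sequenced in 12 libraries (6 control, 6 *Neuid* KD). The authors made libraries with a stranded total RNA kit, aligned the single reads to mm10 (GRCm38) with STAR, obtained read counts per gene from featureCounts, and the deposited counts are not normalized. The strand setting is not given in the sources used here. The deposited table was used whole.

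Symbols, positions and exon lengths came from GENCODE M21 on GRCm38, which gave a symbol for 55230 of the 55471 genes, and promoter windows from RefSeq on GRCm38.p6. Low genes were removed by filterByExpr and library sizes adjusted by TMM. Groups were compared in edgeR 4.0.16 (R 4.3.3) by its quasi-likelihood test, with the group as the only term and Benjamini-Hochberg adjustment over all 19578 tested genes. Genes with an adjusted p under 0.05 were called, and the study's threshold of 0.5 on the log2 fold change is given beside it. Standard errors come from the test statistic. The study used DESeq2 with factors of unwanted variation, so DESeq2 1.42.0 and 1 RUVs factor were alternatives. Within-library ratios used counts plus 0.5 and were tested in scipy 1.17.1. The scripts were tested on simulated data. Any 2 libraries of a group differed by more than counting noise (chi-square of at least 3.53 per degree of freedom over genes).

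The members and lists were chosen with earlier results of these data known. All 9 members are named, and from each other list up to 5 called genes by size of the change, if they averaged 1 CPM or more. The lists cover other filament genes, plakins, chaperones and proteases, kinases, the axonal cytoskeleton, astrocyte transcription factors and 9 sets of cell type markers. Alternatives covered the tool, normalization, filter, replicate number, unwanted variation, background, GC content and length, depth, fold threshold and each library left out.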

Additional observations from a re-analysis of the deposited data

How the results depend on the processing

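No member changed direction in any of the 23 other fits, and 189 of 207 comparisons of a member with its first result kept their side of the threshold. The exceptions were *Nefm*, lost in 10, and *Ina*, called in 8. The lost calls of *Nefm* other than those with a library left out were those without a filter on low counts (edgeR adjusted p = 0.619, 48419 genes tested, median log2 fold change of all genes -0.14) and within the libraries at or above 100 CPM of background (0.416). The number of members called was between 5 and 7 with each library left out. With an absolute log2 fold change above 0.5 required as well, 3 members were called, 2 higher and 1 lower. Upper-quartile normalization moved the median log2 fold change of all genes from -0.03 to -0.09 and gave -0.21 for *Ina*. The 6 within-library ratios kept direction and call with each library left out. Within the 4 control and 3 *Neuid* KD libraries of higher background and the 2 and 3 of lower background, they kept their direction, but such small groups cannot reach an exact permutation p under 0.05 (at best 0.0571 and 0.2).

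Whether the replicate numbers pair the libraries could not be decided from the counts. Libraries with the same number correlated between -0.64 and 0.77 in their deviations from the group means, and 2 of 6 pairs exceeded 0.1. Of the control libraries, 2 of 6 correlated best with their own number. Values as large occurred between different numbers, at 0.776 for control replicate 4 and -0.78 for control replicate 3, each with *Neuid* KD replicate 1. With the replicate number as a block, 6 members were called, 4 higher and 2 lower, and each ratio had an exact sign-flip p of 0.03125, the smallest that 6 pairs allow. The block changed no call of a member and ended that of *Mapk3* (edgeR adjusted p = 0.0692).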
